A study of Homo sapiens with 9 samples.

Results

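The response to MS-275 was read from the 3 arrays of cells treated with it and the 3 arrays of untreated cells from the same lines, 6 of the 9 arrays in the series. The arrays were chosen by their treatment labels and paired by cell line, so the comparison held 3 pairs. The human lines were NB4, from an acute promyelocytic leukaemia, K562, from the blast crisis of a chronic myeloid leukaemia, and U937, a monocytic line. The labels place all 3 among AML cell lines. Treated cells received MS-275 at 5 µM for 6 h, and the other 3 arrays came from cells given SAHA at the same dose and time. Both inhibitors were dissolved in DMSO, and the labels do not say whether untreated cells received it, so the inhibitor and its solvent cannot be told apart. The series was designed to compare expression in leukaemia lines before and after inhibition of histone deacetylases.

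Histone deacetylases (HDACs) remove acetyl groups from lysines of histones and other proteins. Class I consists of HDAC1, HDAC2, HDAC3 and HDAC8, of which HDAC1, HDAC2 and HDAC3 act largely inside corepressor complexes such as SIN3, NuRD and NCoR. MS-275 (entinostat) is a benzamide that inhibits mainly class I enzymes, whereas SAHA (vorinostat), a hydroxamic acid, acts on zinc-dependent enzymes more broadly. Inhibitors of both kinds are known for inducing the cell cycle inhibitor p21 and lowering MYC in leukaemia cells.

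Each line gave 1 array per treatment, so the lines served as replicates and tests addressed changes shared by them. Untreated arrays detected 11826 to 12277 of 22177 probes and MS-275 arrays 11975 to 12705, more in each line than its control. The number of arrays limited the precision, with a median standard error (SE) of 0.168 for a log2 change. Line markers mostly sat where the labels place them. All 6 markers of K562, such as the globin genes HBG1 and HBZ, were highest in K562 and 4 of 5 markers of U937 were highest in U937. Of 5 granule genes fixed for NB4 only MPO was highest there, and untreated NB4 did not detect ELANE. Levels below are log2 normalized intensities of 1 probe per gene, which order arrays for a gene but not genes against each other.

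Of 11228 genes tested, 1329 changed with MS-275 at an adjusted p under 0.05 (11.8% of those tested), 487 upward (4.34%) and 842 downward (7.5%). The shares upward and downward are the background for each count of list members given below. Changes of at least 2-fold were found in 230 genes that rose (2.05%) and 219 that fell (1.95%). The largest rises belonged to FCRLA, CDKN1A, FPR1, IL1A and IER3, and the largest falls to PLD6, MNT, LRP8, SURF6 and KLHL21. At the level of single arrays, all 3 treated values lay above all 3 untreated values for 358 genes (3.19%) and below them for 818 (7.29%). The count of changed genes depended on each line. Leaving out NB4 gave 2 genes, leaving out K562 gave 237 and leaving out U937 gave 0, where limma still gave 2451 genes at an unadjusted p under 0.05. CDKN1A, FPR1, IL1B, MNT, PLD6 and MYC all lost their calls without NB4 and also without U937. Unadjusted p-values were under 0.05 for 3415 genes (30.4%), and 6087 genes (54.2%) had the same sign in every line. Equal array medians in place of quantile normalization gave 373 genes up and 1842 down, against 487 and 842, and moved the median of all genes from −0.02 to −0.14.

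**Figure D1:**
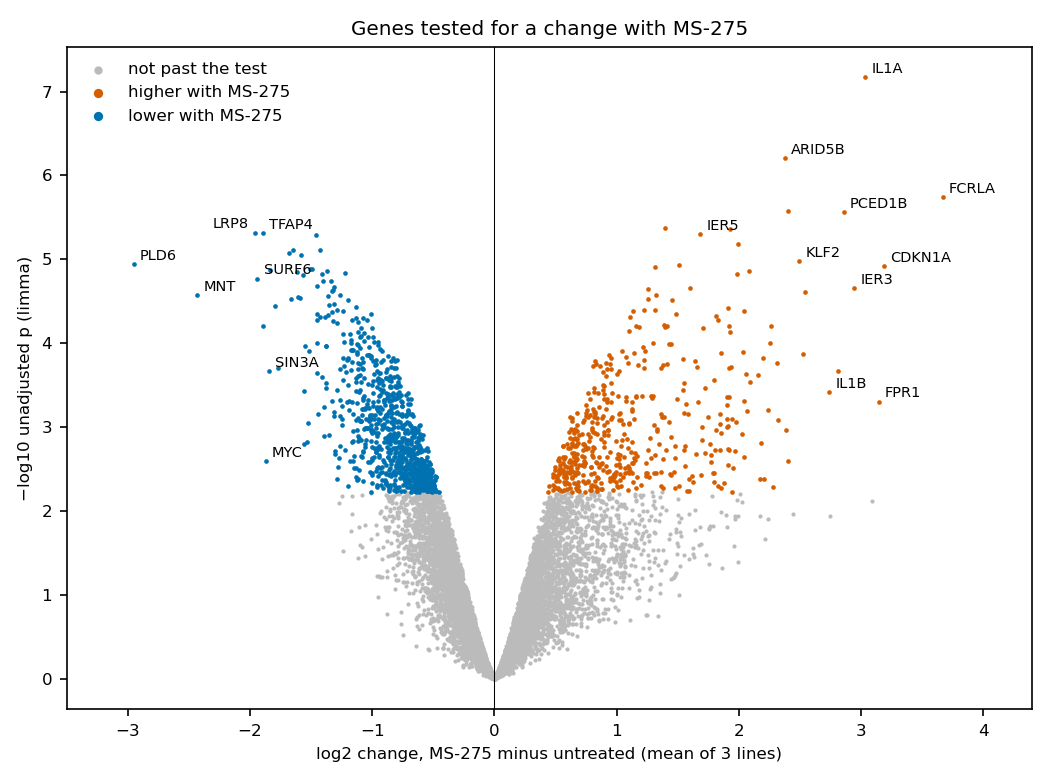
Each point is 1 of the 11228 genes tested, placed by its log2 change with MS-275 (x axis, mean of 3 lines) and by −log10 of its unadjusted limma p (y axis). The 842 genes that fell lie mostly within 2 log2 units of 0, whereas rises reach 3.67 for FCRLA.

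Among genes that restrain cyclin-dependent kinases, CDKN1A (p21) rose, with a higher level in every line, and CDKN1B (p27) fell. CDKN1A stood at 8.40 in untreated NB4, 9.29 in K562 and 8.83 in U937, against 11.56, 11.91 and 12.63 with MS-275. The lowest treated level was above the highest untreated level by over 2 log2 units. The mean rise over 3 lines was 3.19 ± 0.30 (SE from the limma fit, 9.11-fold, limma adjusted p = 0.00556). CDKN1B changed by −0.97 ± 0.21 (limma adjusted p = 0.0294), with the largest difference in U937 (−1.58). The other 4 measured genes of the list did not pass, and the list median was 0.50 against −0.02 over all genes.

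The CDKN1A promoter is shown because Sp1-family factors at its GC boxes are textbook elements of p21 induction by HDAC inhibitors. The 250 bases before the RefSeq start (GRCh38.p14, chr6:36678464-36678713, plus strand) hold the GC box GGGCGG at 4 places, in capitals, where the last pair overlap.
CDKN1A: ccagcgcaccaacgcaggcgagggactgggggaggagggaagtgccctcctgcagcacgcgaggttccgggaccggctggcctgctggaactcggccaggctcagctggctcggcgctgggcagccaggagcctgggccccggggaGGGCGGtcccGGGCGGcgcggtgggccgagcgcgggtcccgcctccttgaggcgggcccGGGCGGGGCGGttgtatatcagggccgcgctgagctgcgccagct
GGGCGG or its reverse complement CCGCCC stood in 68.0% of the 9259 promoters found for tested genes, and in 65.5% of 386 for genes that rose, so the motif was no more frequent among them. Promoters here run from 250 bases before to 50 after the start, and a match marks letters, not binding.

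KLF2, a zinc-finger transcription factor of quiescent lymphocytes and endothelium, rose by 2.50 ± 0.23 (5.64-fold, limma adjusted p = 0.00556). Its levels moved from 7.27 to 10.09 in NB4, from 7.04 to 9.18 in K562 and from 7.12 to 9.66 in U937. The groups did not overlap. KLF6, another member, rose by 0.92 ± 0.16, and the remaining 9 of 11 measured Krüppel-like factors did not pass, with a list median of −0.18. The other genes counted as classic responders to HDAC inhibitors gave GLRX, a glutaredoxin, up by 1.16 ± 0.30, and MYC down. GLRX was not called with equal medians or without the detection filter. That list of 17 genes held 3 rises and 1 fall, where 4.34% of all genes rose and 7.5% fell, with a median of 0.44.

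**Figure D2:**
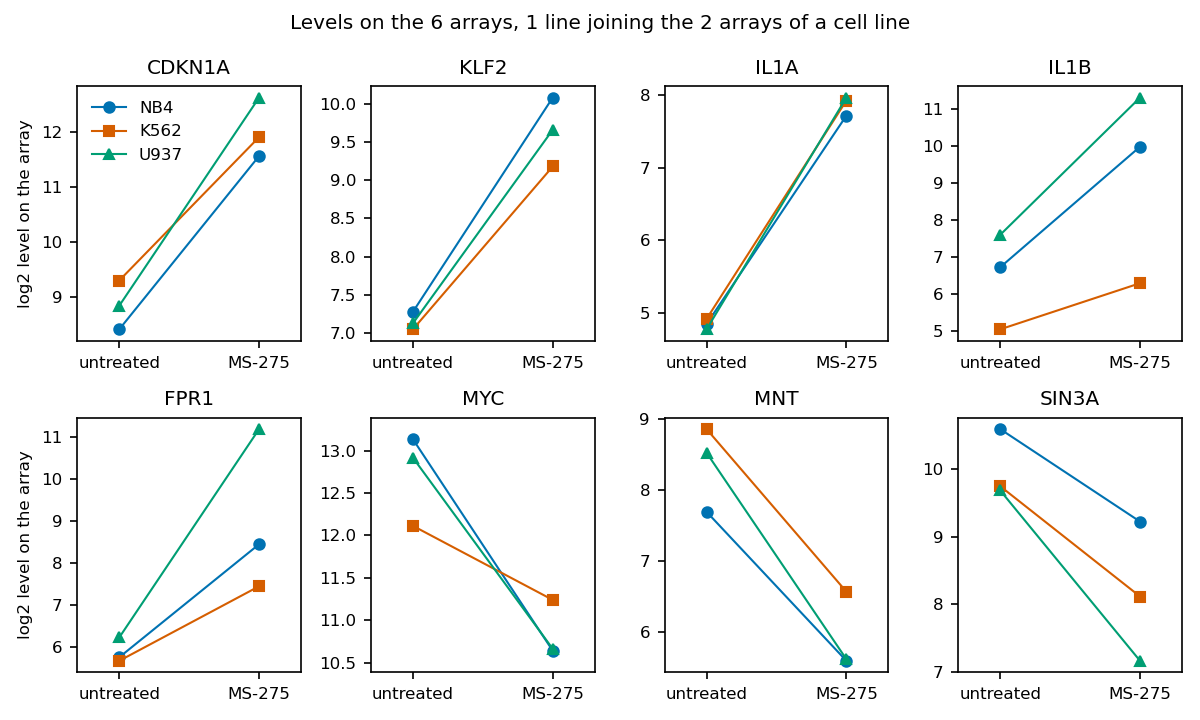
Log2 level (y axis) on each of the 6 arrays, with a line joining the untreated and MS-275 arrays of 1 cell line, for CDKN1A, KLF2, IL1A, IL1B, FPR1, MYC, MNT and SIN3A. Every line moves the same way within a gene, IL1B stays lowest in K562 (5.03 to 6.28), and MYC moves least in K562 (12.11 to 11.24).

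The other leading rises belonged to genes of varied function. FCRLA, an intracellular Fc receptor-like protein of B cells, had levels of 4.75, 6.98 and 4.62 in untreated NB4, K562 and U937, and of 9.20, 10.33 and 7.84 with MS-275. Its rise of 3.67 ± 0.27 was the largest of all genes tested (limma adjusted p = 0.00529), although among untreated arrays only that of K562 detected it. IER3, a stress-response gene, rose by 2.95 ± 0.31, the kinase gene SGK1 by 2.81 ± 0.41, and SH2D2A, a T cell adaptor, by 2.54 ± 0.27. PCED1B, for which no function is given here, rose by 2.86 ± 0.22, and TUFT1, the tuftelin gene, by 2.53 ± 0.34. CCR7, a homing receptor of lymphocytes, rose by 2.39 ± 0.46 and ARID5B, a DNA-binding cofactor, by 2.38 ± 0.15. CCR7 was at 3.37 in NB4 and 0.90 in U937, and lost its call without K562 (limma adjusted p = 0.117) and in a fit of the 6 arrays alone (0.0527). ARID5B ranged from 2.12 to 2.55.

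**Figure D3:**
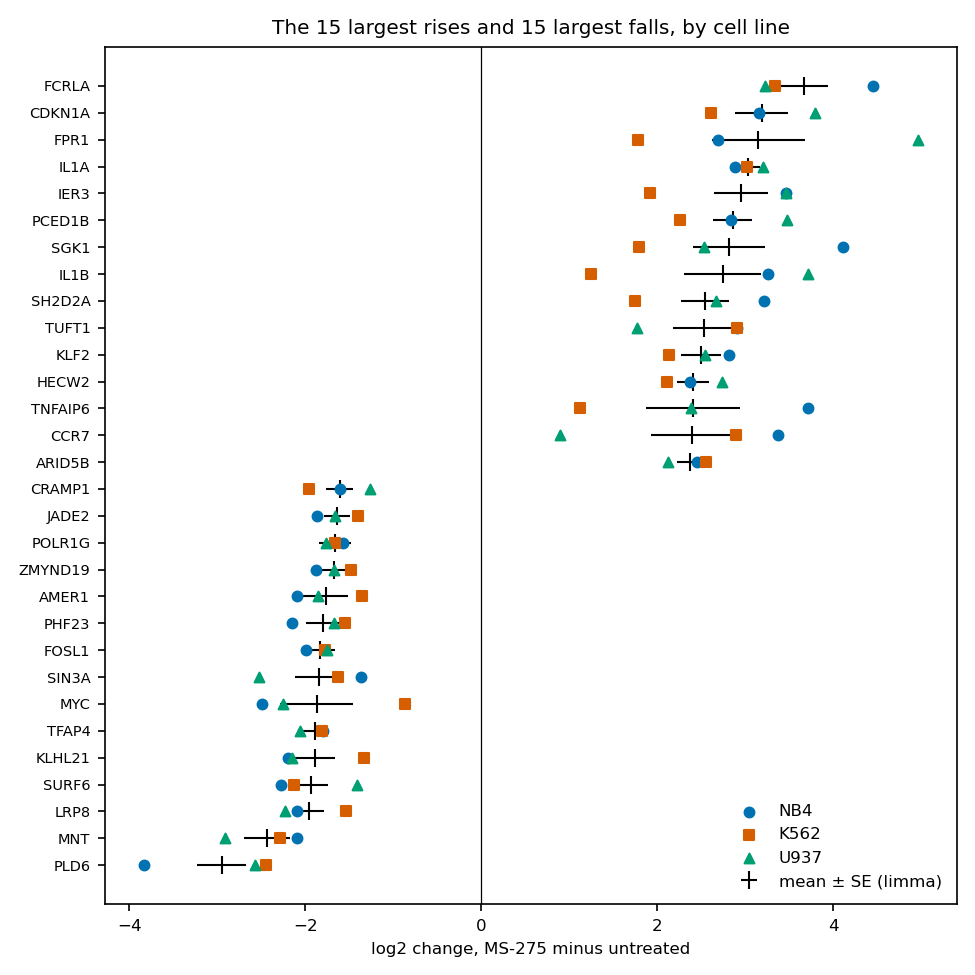
Log2 change in each cell line (points) and mean ± SE of the limma fit (crosses) for the 15 largest rises and 15 largest falls among genes past the test whose lines all moved one way. Many rises spread further between lines (FPR1 widest, from 1.78 to 4.97) than most falls (POLR1G narrowest, from −1.76 to −1.57). Exceptions include the rise of IL1A (2.88 to 3.20) and the fall of MYC (−2.49 to −0.87).

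Interleukin-1 genes rose with MS-275, alongside a chemokine gene and the inflammasome sensor NLRP3, while no gene of the list fell. Of 18 measured genes 4 rose, where 4.34% of all genes did, with a list median of 0.75 (0.71 in NB4, 0.26 in K562 and 1.39 in U937). IL1A, which encodes interleukin-1 alpha, was detected on 0 of 3 untreated and 3 of 3 treated arrays, and so rose at least 6.06-fold (limma adjusted p = 0.000755). Its treated levels were 7.72 in NB4, 7.93 in K562 and 7.97 in U937, close together in lines of different kinds.

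IL1B, which encodes the secreted interleukin-1 beta, went from 6.71 to 9.97 in NB4, from 5.03 to 6.28 in K562 and from 7.59 to 11.30 in U937. The groups overlapped because treated K562 stayed below untreated NB4 and U937, and K562 without treatment did not detect the gene. The mean rise was 2.74 ± 0.44 (limma adjusted p = 0.0156). The monocyte-attracting chemokine CCL2 rose by 1.94 ± 0.50 (limma adjusted p = 0.0497) and was not called in a fit of the 6 arrays alone, without K562, with a background offset of 50, without background correction or without the detection filter. NLRP3 rose by 0.89 ± 0.16, although its dimmer probe gave 0.17. Among members that did not pass, IL1RN, the receptor antagonist, averaged 1.37, CXCL10 1.97 and CCL3 1.76, with K562 at 0.37, 0.26 and −0.11. CXCL8, which encodes interleukin-8, averaged 0.68 ± 0.34 (0.02 in NB4, 0.60 in K562 and 1.43 in U937; limma adjusted p = 0.216), and TNF was at −1.36 in NB4 and 1.35 in U937. Restricted to probes detected on all 9 arrays, 2 genes of the list were called. IL1A, IL1B and CCL2 do not meet that filter, so it did not test them. Without NB4 1 was called and without U937 0.

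No tested subunit of the transcription factor NF-kappaB was among the genes that rose, and the subunit REL was not tested. Activity of NF-kappaB was not measured, and its part in the changes of cytokine genes was not tested. RELA, the main activating subunit, fell by 0.63 ± 0.15 on the log2 scale, and TRAF1, an adaptor of TNF receptors, rose by 0.87 ± 0.20. NFKB1 (−0.24 ± 0.25) and NFKB2 (−0.19 ± 0.20) did not pass. In all 1 of 15 genes rose and 1 fell, near the shares of all genes (4.34% and 7.5%), with a median of −0.18.

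Phagocytes sense bacteria, complement and antibodies through dedicated receptors. FPR1, the receptor for formylated bacterial peptides, stood at 5.76, 5.67 and 6.23 in untreated NB4, K562 and U937 and at 8.45, 7.45 and 11.19 after MS-275. These groups did not overlap, and the rise was 3.15 ± 0.53 (8.85-fold, limma adjusted p = 0.0165). ITGAM, the CD11b subunit of an integrin of myeloid cells, rose by 1.91 ± 0.36 and the Fc receptor gene FCGR2A by 1.32 ± 0.28. FPR1, ITGAM and FCGR2A were the 3 of 18 receptors that passed, where 4.34% of all genes rose, and the median was 0.55, lowest in K562 at 0.09. FPR2 averaged 2.01 and C5AR1, the complement C5a receptor, 1.97 without passing, with K562 at 0.28 and −0.07. CSF1R, the macrophage colony-stimulating factor receptor, averaged 2.45 and did not pass either (limma adjusted p = 0.0698).

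Among 10 monocyte and macrophage markers CD68, a lysosomal glycoprotein, rose by 0.77 ± 0.12 and none fell, with a median of 0.63. The granule protein genes S100A8 and S100A9 differed by 3.54 and 2.76 in U937, against 0.16 and −0.11 in K562, and did not pass over the lines. Of 10 azurophil granule genes, whose proteins promyelocytes store, none passed (median 0.26).

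Genes of other cell types were measured as well, since single ones were among the leading rises. Their counts stand against the 4.34% of all genes that rose. CD2, an adhesion receptor of T and NK cells, rose by 1.90 ± 0.31, from 5.54 to 8.39 in U937 for example, and was the 1 of 6 measured lymphoid T and NK genes to pass. CD3D, CD3E, CD5, CD7 and LCK, which define T cells, were undetected on all 9 arrays. Summed linear intensity of that list was 455.6 to 8513 on untreated and 848.7 to 9394 on treated arrays. In the B cell list FCRLA was the 1 of 5 genes to pass, with a list median of 0.48, and MS4A1, PAX5, BLK and VPREB1 were undetected on all arrays. The sums were 517.6 to 971.1 untreated and 1365 to 2538 treated. They include FCRLA, and its share of them was not separated. PECAM1, an adhesion molecule of endothelium and myeloid cells, rose by 1.10 ± 0.23 and was the 1 of 8 epithelial and stromal markers to pass, with COL1A2, COL3A1 and CDH5 undetected. In these bulk samples, more cells expressing a gene and more RNA per cell cannot be told apart.

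MYC fell, as did MNT, a partner of MAX that opposes MYC on the same DNA element, the E-box. MYC levels were 13.13 in untreated NB4, 12.11 in K562 and 12.92 in U937, and 10.64, 11.24 and 10.67 with MS-275. The groups did not overlap, and the change was −1.87 ± 0.42 (3.66-fold lower, limma adjusted p = 0.0337). MYC was not called without the detection filter (limma adjusted p = 0.0626), without NB4 or without U937. MNT went from 7.70 to 5.60 in NB4, from 8.86 to 6.57 in K562 and from 8.53 to 5.62 in U937, a change of −2.43 ± 0.26 (5.40-fold lower, limma adjusted p = 0.00662).

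The other members of the network did not move together. MAX, the shared partner, changed by −0.01 ± 0.15, and its dimmer probes gave −0.39 and −0.21. MXD1, another MYC antagonist, differed in sign between lines, at −1.56 in K562 and 0.46 in U937. In the 9 measured genes 0 rose and 2 fell, where 4.34% of all genes rose and 7.5% fell, with a median of −0.23.

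The other leading falls belonged to genes of varied function. PLD6, a mitochondrial phospholipase of the piRNA pathway, fell most, by 2.95 ± 0.28 on the log2 scale (7.73-fold, limma adjusted p = 0.00556). Its untreated levels were 9.38 in NB4, 8.38 in K562 and 8.74 in U937, and its treated levels were 5.54, 5.94 and 6.17, with no overlap. LRP8, a receptor for reelin and apolipoprotein E, changed by −1.95 ± 0.16, TFAP4, an E-box transcription factor, by −1.89 ± 0.16, and KLHL21, an adaptor of a cullin ubiquitin ligase, by −1.90 ± 0.23. FOSL1, a FOS-related subunit of AP-1, changed by −1.84 ± 0.18 and AMER1, a negative regulator of Wnt signalling, by −1.77 ± 0.26. PHF23, a PHD-finger protein, changed by −1.80 ± 0.20 and JADE2, also a PHD-finger protein, by −1.64 ± 0.15. ZMYND19 (−1.68 ± 0.15) and CRAMP1 (−1.61 ± 0.16) completed the 15 together with SIN3A, SURF6 and POLR1G.

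Most measured ribosome biogenesis genes fell. Of 27 genes 18 fell and 0 rose, where 7.5% of all genes fell, and the list median was −0.73 (−0.91 in NB4, −0.67 in K562 and −0.60 in U937). SURF6, a nucleolar protein, changed by −1.94 ± 0.19 (limma adjusted p = 0.00595), from 7.87 to 5.59 in NB4, 7.98 to 5.86 in K562 and 7.37 to 5.96 in U937. PPAN changed by −1.49 ± 0.14, NOP16 by −1.42 ± 0.13, RRS1 by −1.40 ± 0.14 and RRP9 by −1.16 ± 0.16, all factors of ribosomal RNA processing or subunit assembly. All 4 were lower in every line, NOP16 by −1.31 in NB4 and K562 and −1.65 in U937.

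The RNA polymerase I machinery, which transcribes ribosomal RNA genes, was part of the fall. POLR1G, a subunit outside the list, changed by −1.67 ± 0.18, POLR1C, a subunit shared with polymerase III, by −1.32 ± 0.14, the polymerase I factor UBTF by −1.12 ± 0.16 and RRN3 by −0.83 ± 0.15. POLR1B, at −0.63 ± 0.16, narrowly missed the threshold (limma adjusted p = 0.0501). NCL (−0.43) and NOP56 (−0.41), abundant nucleolar proteins, did not pass, and FBL, the methyltransferase fibrillarin, was at 0.17. The count of 18 fell to 8 in a fit of the 6 arrays alone, 0 without NB4, 7 without K562 and 0 without U937.

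The E-box CACGTG, which MYC with MAX and MNT with MAX are known to bind, was counted in promoters because both partners fell. It stood in 10.2% of 9259 promoters of tested genes, 16% of 708 of genes that fell and 8.81% of 386 of genes that rose. Of 22 promoters found for all tested ribosome biogenesis genes, fallen or not, 8 held it (36.4%), and of 15 for those that fell 6 held it (40.0%). It also stood in 4 of 11 promoters for the 15 leading falls and 0 of 12 for the 15 leading rises. The motif reads the same on both strands. The windows below are RefSeq sequence of GRCh38.p14 on the strand of the gene, with the E-box in capitals, for the leading falls and the ribosome biogenesis genes that fell and hold it.
MNT: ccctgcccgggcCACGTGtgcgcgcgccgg
SURF6: ggagcacaggaaCACGTGcgggaccggggt
POLR1G: cccctttggatcCACGTGgtctgcaacctg
JADE2: tcacaactcaccCACGTGccttcaaagcca
RRP9: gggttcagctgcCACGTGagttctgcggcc
NOP2: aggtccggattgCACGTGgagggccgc
PES1: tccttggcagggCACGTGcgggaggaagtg
BYSL: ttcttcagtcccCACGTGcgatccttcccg
PNO1: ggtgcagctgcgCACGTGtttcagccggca
MNT lies at chr17:2401236-2401265 (minus strand), SURF6 at chr9:133336395-133336424 (minus), POLR1G at chr19:45406620-45406649 (plus) and JADE2 at chr5:134524007-134524036 (plus). RRP9 lies at chr3:51941892-51941921 (minus), NOP2 at chr12:6568242-6568268 (minus), PES1 at chr22:30591880-30591909 (minus), BYSL at chr6:41921515-41921544 (plus) and PNO1 at chr2:68157885-68157914 (plus). The E-box began 193 bases before the start in MNT (−193), at −224 in SURF6, −12 in POLR1G and −5 in RRP9, and after the start in JADE2 (10), NOP2 (35), PES1 (13), BYSL (28) and PNO1 (9). NOP2, a ribosomal RNA methyltransferase, changed by −0.76 ± 0.15, and PES1, BYSL and PNO1, assembly factors, by −0.64 ± 0.15, −0.73 ± 0.14 and −0.97 ± 0.23.

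The scaffold SIN3A of the SIN3 corepressor complex fell, while the genes of the class I HDACs did not pass. SIN3A was at 10.59, 9.75 and 9.69 in untreated NB4, K562 and U937 and at 9.22, 8.11 and 7.16 with MS-275. All treated levels lay below all untreated levels, and the change was −1.84 ± 0.27 (3.59-fold lower, limma adjusted p = 0.0119). It was not called without K562 (limma adjusted p = 0.0679), nor without NB4 or U937. ING2, a SIN3 subunit that reads methylated histone H3, changed by −1.38 ± 0.22, from 8.42 to 6.55 in U937, and its paralog ING1 by −0.56 ± 0.14 on its brighter probe and 0.07 on its dimmer one. MTA2, a NuRD subunit, changed by −0.53 ± 0.12, and TBL1X, of the NCoR complex, rose by 0.87 ± 0.22. Of 25 corepressor genes 1 rose and 5 fell, where 4.34% of all genes rose and 7.5% fell, with a median of −0.24. Those that fell were SIN3A, ING1, ING2, MTA2 and PHF23, which was listed without being known here as a subunit.

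HDAC1 stood between 13.18 and 13.31 on all 6 arrays (−0.02 ± 0.12), and HDAC2 changed by −0.12 ± 0.17, HDAC3 by 0.27 ± 0.14 and HDAC8 by 0.06 ± 0.13. HDAC3 and HDAC8 were at −0.01 and −0.06 when arrays were scaled to equal medians. None of 8 measured HDAC genes passed (median 0.07). Among 11 histone acetyltransferases EP300 fell, by 0.80 ± 0.13 on the log2 scale, and the median was −0.38.

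Of 8 BET proteins and elongation factor genes BRD3 and CCNT2 fell, where 7.5% of all genes fell and 4.34% rose. BRD3 fell by 0.59 ± 0.15 on the log2 scale, and the list median was −0.18. CCNT2, a cyclin of the elongation factor P-TEFb, changed by −1.01 on its brighter and −0.10 on its dimmer probe. DOT1L, a methyltransferase of histone H3, was detected on 3 of 3 untreated and 0 of 3 treated arrays and fell at least 1.68-fold (limma adjusted p = 0.0127). It was the 1 of 13 histone and DNA methyltransferase genes to pass, with a median of −0.28. Of 11 linker and variant histones H1-10 rose, by 0.91 ± 0.14, from 7.85 to 8.92 in NB4, 8.13 to 9.18 in K562 and 8.89 to 9.52 in U937. The median was 0.27.

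Of 39 genes of DNA replication and the G1/S transition 6 fell and 0 rose, where 7.5% of all genes fell, by at most 2.26-fold, with a median of −0.25. CDC25A, the phosphatase that activates CDK2, changed by −1.18 ± 0.15 (limma adjusted p = 0.0100), from 10.84 to 9.65 in NB4, 10.48 to 9.52 in K562 and 10.54 to 9.16 in U937, and −1.24 on its other probe. UNG, a uracil glycosylase, changed by −1.02 ± 0.18, CCNE1 (cyclin E1) by −0.92 ± 0.21 and the ribonucleotide reductase subunit RRM2 by −0.81 ± 0.13. The origin factors ORC1 and MCM10 changed by −0.67 ± 0.15 and −0.58 ± 0.15. Of 29 genes of G2/M and mitosis the cyclin genes CCNA2 (−0.67 ± 0.16) and CCNB1 (−0.66 ± 0.16) and the checkpoint gene BUB3 (−0.55 ± 0.11) fell and 0 rose, a share near that of all genes, with a median of −0.21. BUB3 was not called when the probes of each gene were averaged, and CCNE1, MCM10 and CCNA2 were not called without the detection filter.

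Of 25 regulators of blood cell identity 3 rose and 3 fell, where 4.34% of all genes rose and 7.5% fell, and the list median was 0.06. BCL6, a repressor of lymphoid and myeloid differentiation genes, rose by 2.28 ± 0.58, with 3.53 in NB4, 2.91 in U937 and 0.41 in K562. CEBPB, an activator of macrophage genes, rose by 1.54 ± 0.25 and went from 10.00 to 12.15 in NB4, from 11.82 to 13.31 in K562 and from 12.33 to 13.33 in U937. KIT, the stem cell factor receptor detected on 1 of 3 untreated arrays, rose by 0.84 ± 0.22 and was not called with equal medians, a background offset of 50, no background correction or no detection filter. CBFA2T3, a corepressor of blood progenitors, changed by −1.56 ± 0.32, LYL1, a basic helix-loop-helix factor, by −1.15 ± 0.26 and MYB, a factor that maintains progenitors, by −0.95 ± 0.20. MYB levels were 13.51, 12.57 and 13.71 without and 12.25, 11.92 and 12.76 with treatment, so the groups overlapped. Without the detection filter BCL6 and LYL1 were not called either. The anchors SPI1 (0.26), LMO2 (−0.38) and GATA1 (0.16) did not pass. None of 18 erythroid genes passed (median 0.17), and of 5 megakaryocytic genes ITGA2B, the platelet integrin alpha-IIb, rose by 0.67 ± 0.13 (median 0.23).

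Immediate early genes, which respond to signals without new protein, supplied 6 rises and 2 falls among 17, with a median of 0.16. Among all genes 4.34% rose and 7.5% fell. Besides IER3 and SGK1, IER5 rose by 1.69 ± 0.14, FOS by 1.59 ± 0.39, ATF3 by 1.25 ± 0.13 and JUN by 0.63 ± 0.14. FOSL1 fell, as did SRF, a factor that drives FOS, by 0.85 ± 0.19 on the log2 scale. ATF3 went from 7.5 to 8.75 in NB4, 9.67 to 11.00 in K562 and 7.65 to 8.83 in U937. FOS ranged from 0.66 in K562 to 2.48 in U937. Of 19 MAP kinase phosphatases and feedback genes DUSP5 rose by 1.92 ± 0.28, DUSP4 by 1.51 ± 0.38 (0.75 on its dimmer probe) and the pseudokinase gene TRIB2 by 1.10 ± 0.26, while 0 fell and the median was 0.07. FOS and DUSP4 were not called with a background offset of 50, without background correction or without the detection filter. TRIB2 was not called without that filter or with equal medians.

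Of 11 genes of death receptors and their ligands 4 rose and 0 fell, where 4.34% of all genes rose, with a median of 0.44. TNFSF10, which encodes the death ligand TRAIL, rose by 1.77 ± 0.39, its receptor TNFRSF10B by 1.44 ± 0.34 (0.29 on its dimmer probe), TNFSF9 by 1.55 ± 0.27 and TNFRSF1B, a TNF receptor, by 1.13 ± 0.28. TNFSF10 went from 5.80 to 8.79 in U937, and its rise was not called with a background offset of 50. Without the detection filter TNFSF10, TNFRSF10B and TNFRSF1B were not called. Of 13 pro-apoptotic BCL2 family genes BIK rose, by 1.39 ± 0.25 (median 0.10), and none of 9 anti-apoptotic genes passed (median −0.18). BCL2L1 was at −0.05 ± 0.19 and MCL1 at −0.31 ± 0.12, with 0.18 on its dimmer probe.

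Of 16 p53 target genes CDKN1A, the sestrin gene SESN2 (1.03 ± 0.22) and GADD45A (0.80 ± 0.20) rose and the nuclease gene AEN fell (−1.41 ± 0.21), with a median of 0.26. The shares over all genes were 4.34% up and 7.5% down. Among 15 genes of ER stress and ATF4, DDIT4, an inhibitor of mTOR signalling, rose by 1.42 ± 0.20 and HERPUD1, of ER-associated degradation, by 1.09 ± 0.25, together with SESN2, and the median was 0.06. One heat shock gene of 17, HSPH1, fell (−0.87 ± 0.19; list median −0.21), and none of 5 genes in the metallothionein list passed (median 0.35).

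Interferon response and antigen presentation genes were read against the 4.34% of all genes that rose. IFIT1 rose by 1.56 ± 0.32 and IFI35 by 1.01 ± 0.17, 2 of 16 interferon response genes with a median of 0.30. HLA-DMA, which loads peptides onto MHC class II, rose by 1.37 ± 0.32, HLA-E by 1.02 ± 0.22 and the immunoproteasome subunit PSMB8 by 0.85 ± 0.14, 3 of 16 genes with a median of 0.37. Of 20 genes of cytoskeleton and adhesion TUFT1, CGN (cingulin of tight junctions, 1.97 ± 0.42), VCL (vinculin, 1.11 ± 0.26) and VIM (vimentin, 0.62 ± 0.15) rose, with a median of 0.45. SYT11, a synaptotagmin, rose by 1.83 ± 0.22 and was the 1 of 13 neuronal genes to pass (median 0.26). Of 18 lipid synthesis genes (cholesterol and fatty acids) NSDHL, a sterol dehydrogenase, fell by 0.67 ± 0.12 on the log2 scale, and the median was −0.02. In the list of 11 reference genes TBP fell (−0.62 ± 0.12; median 0.21).

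**Figure D4:**
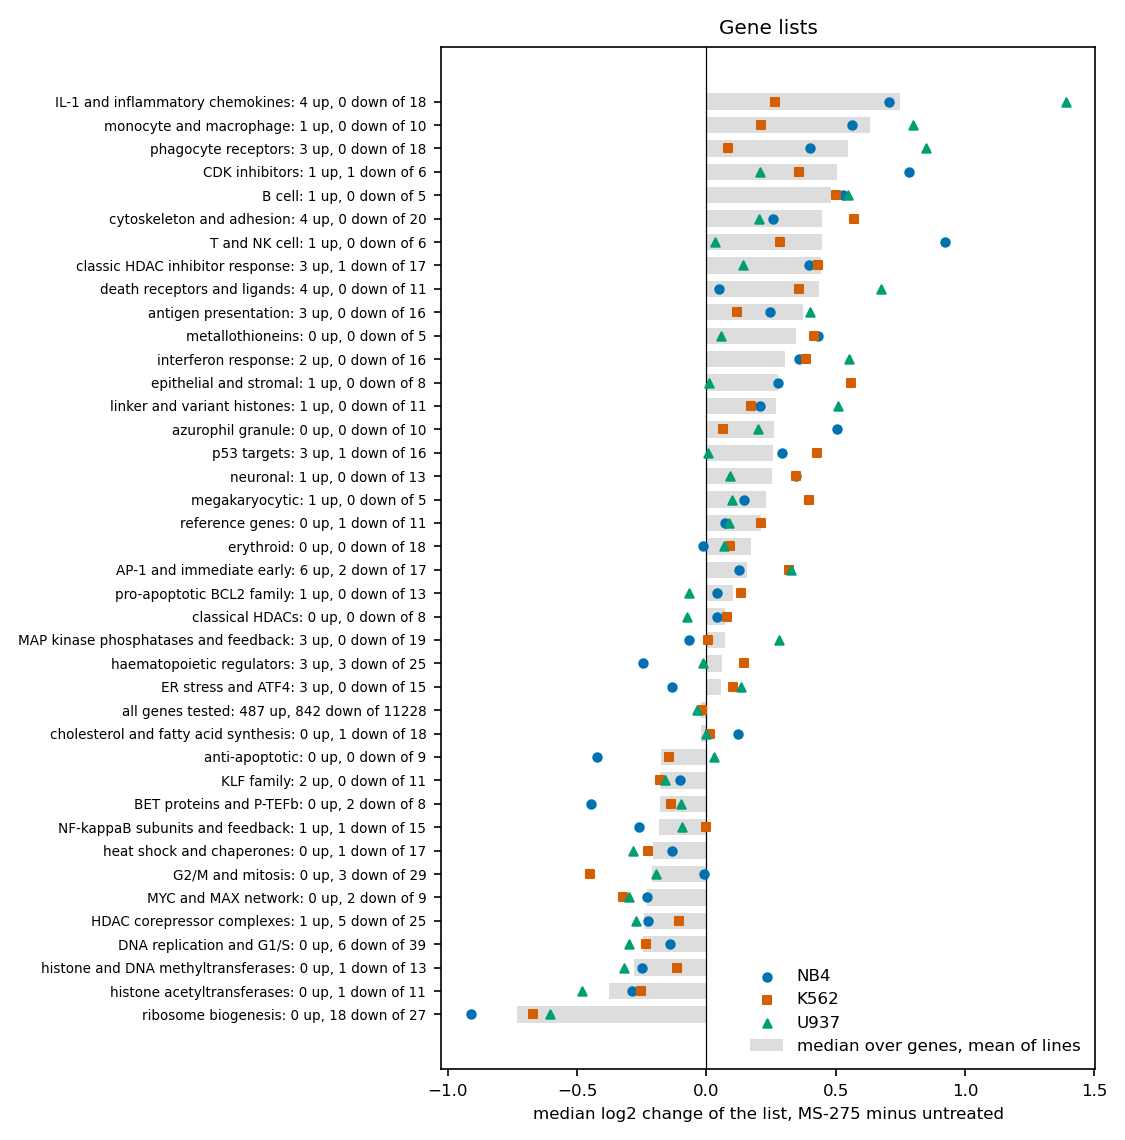
Median log2 change with MS-275 (x axis) of each gene list over the mean of the lines (bars) and in each line (points), with the genes that rose, fell and were measured in each label. Ribosome biogenesis has the lowest median (−0.73, 18 of 27 down) and interleukin-1 and chemokine genes the highest (0.75, 4 of 18 up), where K562 lies nearest to 0 of the lines.

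Changes confined to 1 line were described without a test, since each line had 1 array per treatment. At least 2-fold higher levels were found for 691 genes in NB4 (6.15%), 579 in K562 (5.16%) and 520 in U937 (4.63%), and 93 of these were shared by all 3 lines (0.828%). At least 2-fold lower levels were found for 395 (3.52%), 422 (3.76%) and 368 (3.28%), with 67 shared (0.597%). Only 13 genes were 2-fold higher in one line and 2-fold lower in another (0.116%). Genes 2-fold higher in one line and within 0.5 log2 of 0 in both others numbered 101 in NB4 (0.9%), 175 in K562 (1.56%) and 106 in U937 (0.944%). Those lower in one line in this way numbered 40 in NB4 (0.356%), 91 in K562 (0.81%) and 49 in U937 (0.436%).

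In NB4 the LIM-homeobox gene LHX2 was higher by 3.92 and the hexokinase gene HK1 by 3.61, against 0.40 or less in the other lines. HK1 went from 6.56 to 10.17 in NB4, where it started far below K562 (13.59) and U937 (11.92). Its dimmer probes gave mean changes over the lines of 0.21 and 0.04, not comparable with a change in NB4 alone. IRF8, a monocyte transcription factor, went from 8.67 to 11.37 in NB4 and stayed near 11.6 in U937 (11.55 and 11.69). FOXN4 was also higher in NB4 (2.64), and the cytokine gene OSM (−2.42), HOXD13 (−2.28), CEBPD (−1.94) and HS3ST3A1 (−1.66) were lower.

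In K562 the extracellular matrix gene EMILIN2 was higher by 3.71, from 7.32 to 11.03, which placed it beside NB4 and U937 at 10.44 to 10.77. The receptor gene ERBB3 (3.46), DLK2 (3.43) and the forkhead gene FOXA2 (3.37) were also higher there. Other probes of ERBB3 and DLK2 gave mean changes over the lines of 0.14 and of −0.11 and −0.21. Such means are not comparable with a change in K562 alone. LTN1, a ribosome quality control ligase, was lower by 1.83 (−1.83), LIPT1 by −1.80, VASN by −1.76 and SLF1 by −1.73.

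In U937 TMEM52B was higher by 3.78, from 6.34 to 10.12, IL22RA2, a decoy receptor for interleukin-22, by 3.70, the monocyte chemokine CCL7 by 3.01 and S100A9 by 2.76. LRRC3 (−2.04), NUMBL (−1.74), the ubiquitin ligase adaptor BTRC (−1.57) and ZNF653 (−1.52) were lower. Genes past the test over all lines had similar medians in each line, at 1.04 in NB4, 0.85 in K562 and 0.86 in U937 for rises and −0.84, −0.78 and −0.80 for falls, values that the test itself selected.

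A small set of genes crossed the detection limit. Detection on 0 of 3 untreated and 3 of 3 treated arrays was found for 26 genes (0.232% of those tested), 12 of which also passed the test. Such sets are picked from the arrays that the test uses. Passing it is therefore no separate support, here or for the reverse set below. Besides IL1A these genes included HECW2, a ubiquitin ligase (at least 4.14-fold higher), and TNFAIP6, a hyaluronan-binding protein of inflammation (at least 4.39-fold). HECW2 was detected on 0 of 3 SAHA arrays, so it met the detection filter only through the MS-275 arrays. SAG, the retinal arrestin (at least 3.53-fold), and S100A3 (at least 2.91-fold) were also included. AIM2, an inflammasome sensor of DNA (at least 2.75-fold), and TMEM100 (at least 2.49-fold) passed as well. S100A3 reached 6.65 in NB4, 6.82 in K562 and 6.97 in U937 from levels of 4.79 to 5.06. ANGPTL4, a secreted lipase inhibitor, was at least 6.48-fold higher on average but did not pass (limma adjusted p = 0.0565), with 9.76 in NB4, 8.79 in K562 and 5.36 in U937 after treatment. TNFAIP6 was not called in a fit of the 6 arrays alone (limma adjusted p = 0.0515) or without the detection filter (0.0641), and AIM2 was not called with a background offset of 50 or without that filter.

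The reverse, detection on 3 of 3 untreated and 0 of 3 treated arrays, was found for 16 genes (0.143%), 4 of which passed. These were NR1D2, a nuclear receptor of the circadian clock (at least 2.09-fold lower, limma adjusted p = 0.0102), RAB40C (at least 1.94-fold), DOT1L and ZBTB2 (at least 1.48-fold). NR1D2 levels were 6.10 to 6.43 untreated and 4.68 to 4.81 treated, without overlap.

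The contrast of MS-275 with SAHA, at the same dose and time in the same lines, asked where the benzamide and the hydroxamic acid differ. It was the 1 pair of compounds available. Of 11228 genes 2657 differed at an adjusted p under 0.05 (23.7%), 1150 higher with MS-275 (10.2%) and 1507 lower (13.4%). Differences of at least 2-fold were found for 385 of the higher (3.43%) and 593 of the lower genes (5.28%), and 4237 genes had an unadjusted p under 0.05 (37.7%). Leaving out NB4 gave 838 genes, K562 1731 and U937 512, and 1742 passed in a fit of those 6 arrays alone. Both compounds were set against the same untreated arrays, so their changes against untreated share those arrays. The direct contrast takes no untreated level, although the untreated arrays enter its estimate of the spread.

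Several leading genes gave no detectable difference between the compounds. CDKN1A levels with SAHA were 11.30 in NB4, 11.79 in K562 and 13.06 in U937, and MS-275 minus SAHA was −0.02 (95% interval −0.73 to 0.69, limma adjusted p = 0.972). For KLF2 the difference was −0.05 (−0.60 to 0.49), for PLD6 −0.36 (−1.01 to 0.30), for LRP8 −0.19 (−0.57 to 0.20) and for TFAP4 0.12 (−0.25 to 0.49). For MYC it was 1.04 (0.06 to 2.01), which did not pass after adjustment (limma adjusted p = 0.114).

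Inflammatory genes were higher with MS-275 than with SAHA for 7 of 18 members and lower for 0, where 10.2% of all genes were higher, and the median difference was 1.21. IL1A differed by 1.95 (1.63 to 2.28, limma adjusted p = 0.00186), with SAHA levels of 6.03, 5.99 and 5.74 in NB4, K562 and U937. CCL2 differed by 2.96 (1.78 to 4.14), and its level with SAHA (4.99, 4.85 and 8.23) was below that of untreated cells in each line. CXCL8 differed by 2.21 (1.42 to 3.00), whereas IL1B differed by 1.39 without passing (limma adjusted p = 0.0596). Among phagocyte receptors 4 of 18 were higher with MS-275 and 0 lower, FPR1 by 2.24 (1.00 to 3.48), a difference not called without background correction or without the detection filter.

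Of 25 blood cell regulators 9 were higher with MS-275 than with SAHA and 0 lower, with a median difference of 0.80. Over all genes 10.2% were higher and 13.4% lower. SPI1, the myeloid factor PU.1, changed by 0.26 with MS-275 and −1.63 with SAHA, a difference of 1.89 (limma adjusted p = 0.00467). MYB differed by 1.53, CBFA2T3 by 1.79, LMO2 by 1.67 and IKZF1, the lymphoid factor Ikaros, by 1.36. NFE2, an erythroid and megakaryocytic factor, was counted in the erythroid list and not among these regulators. It was the 1 of 18 erythroid genes higher with MS-275, and 0 were lower. NFE2 stood at 10.72, 13.04 and 11.43 in NB4, K562 and U937 with MS-275 and at 7.61, 10.59 and 8.31 with SAHA (difference 2.89, limma adjusted p = 0.00198).

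Of 25 corepressor genes 9 were lower with MS-275 than with SAHA and 2 higher, where 13.4% of all genes were lower and 10.2% higher, with a median difference of −0.22. SIN3A levels with SAHA were 10.77, 10.27 and 10.22 in NB4, K562 and U937, all above the MS-275 levels, and the difference was −2.26 (−2.89 to −1.62, limma adjusted p = 0.00288). SAP130, another SIN3 subunit, changed by −0.87 with MS-275 and 1.24 with SAHA (difference −2.10), ING1 differed by −1.93 and ING2 by −1.67. Of 18 cholesterol and fatty acid genes 10 were lower and 0 higher, with a median of −0.79. IDI1, an isoprenoid isomerase, differed by −1.90 and INSIG1, a sterol sensor partner, by −1.71. INSIG1 stood at 9.89, 11.57 and 10.12 with MS-275 and 11.26, 12.70 and 12.76 with SAHA. In the MYC network 5 of 9 genes were lower with MS-275 and 0 higher, among them MXD1 by −2.37 and MNT by −1.80 (median difference −0.76).

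HDAC3 was the 1 of 8 HDAC genes that differed (−0.82, limma adjusted p = 0.00861), and NFKB1 (1.65) and NFKB2 (−1.86) differed in opposite directions. The counts that follow stand against 10.2% of all genes higher with MS-275 and 13.4% lower. Ribosome biogenesis genes gave 5 higher and 4 lower of 27, with a median difference of −0.04, UBTF being higher by 0.87 and RRP9 lower by 1.40 (−1.40) with MS-275. In replication and G1/S 9 genes of 39 were higher and 4 lower, and CCNE1 differed by −1.25. The p53 targets gave 4 lower of 16 and 0 higher, neuronal genes 4 lower of 13 and 0 higher, and heat shock genes 4 lower of 17 and 0 higher. Pro-apoptotic genes gave 4 lower and 1 higher of 13.

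The genes furthest apart were named by size among those that differed in the same direction in all 3 lines. Higher with MS-275 were IL18RAP, a subunit of the interleukin-18 receptor (3.90), DHRS9, a retinol dehydrogenase (3.38, with 0.67 on its dimmer probe), PCED1B (3.21), CCL2, NFE2 and PRAM1 (2.82). PRAM1 differed by 4.93 in NB4, 0.09 in K562 and 3.45 in U937, was detected on 2 of 3 MS-275 and 1 of 3 SAHA arrays, and was not called without the detection filter. IL18RAP stood at 9.39, 11.11 and 10.64 with MS-275 and 5.57, 7.64 and 6.21 with SAHA. Lower with MS-275 were DACT3, a Wnt regulator (−3.83), WIPI1, an autophagy protein (−2.87), WDR19, of cilia (−2.83), RAB40B (−2.80), the zinc-finger gene ZNF324 (−2.60) and PIERCE1 (−2.53). DACT3 was at 6.18, 7.67 and 5.10 with MS-275 and at 10.99, 10.03 and 9.40 with SAHA. Its change with MS-275 against untreated averaged −0.02 over lines that differed, with −0.59 when NB4 was left out and 0.36 when U937 was. ZNF324 and RAB40B fell with MS-275 against untreated (−1.45 ± 0.19 and −1.26 ± 0.23).

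**Figure D5:**
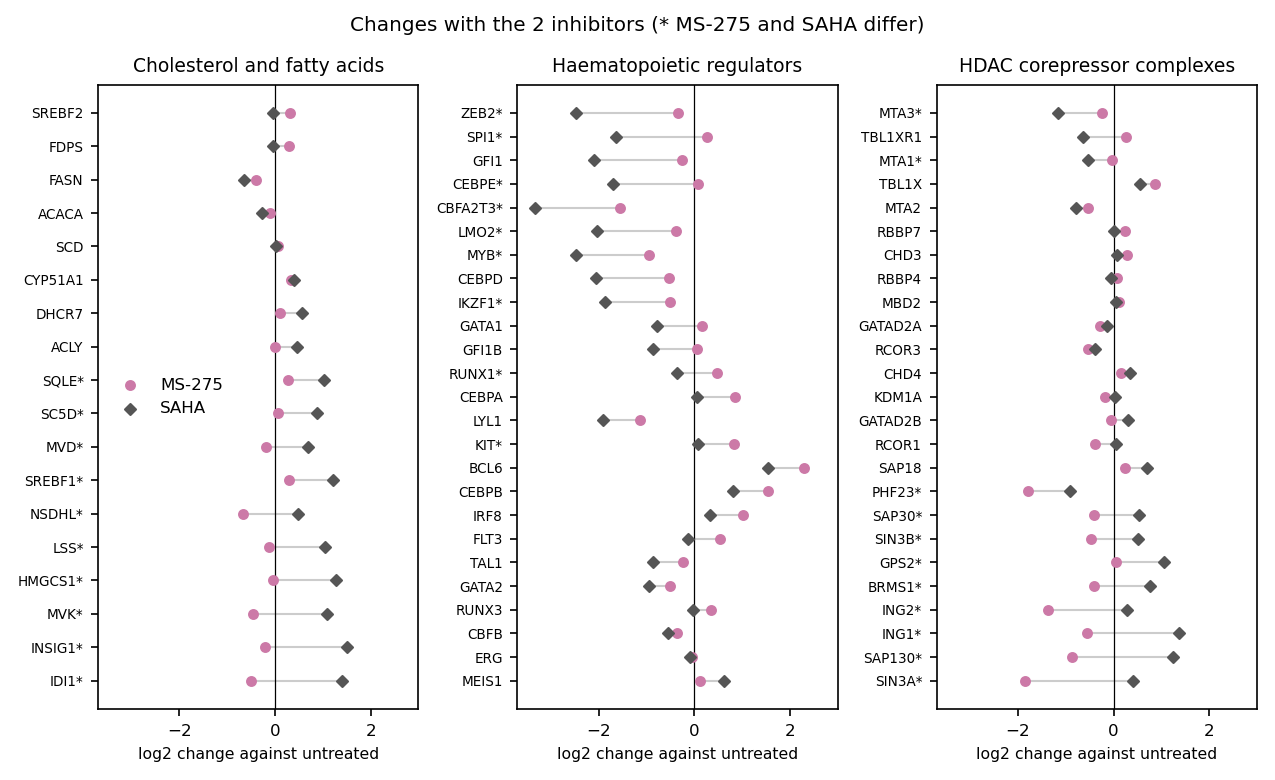
Log2 change against untreated (x axis) with MS-275 (circles) and SAHA (diamonds) for the measured genes of 3 lists, with a line joining the 2 values of a gene and an asterisk where the inhibitors differed at an adjusted p under 0.05. IDI1 lies at −0.50 with MS-275 and 1.39 with SAHA, ZEB2 at −0.34 and −2.48, and SIN3A lies on opposite sides of 0 for the compounds.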

How the data were processed

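RNA from NB4, K562 and U937 was hybridised as biotinylated cRNA to Illumina bead arrays, 1 per line and treatment, per the labels' protocols. The authors deposited bead intensity per probe, neither background-subtracted nor normalized as far as the values show (array medians 104.3 to 138.6), with a detection p-value per probe that the authors deposited in steps of 1/708. The authors also deposited log2 values. The submitters' processing notes name lumi, whose version and settings are not given in the sources used here. These values equal the quantile-normalized log2 intensity (largest difference 5e-09), so they hold no background correction, and were used as an alternative. Slide, scan and genome build are not given in the sources used here, so no batch was tested.

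Background was corrected by nec of limma (offset 16) before quantile normalization and log2 (R 4.3.3, limma 3.58.1). Folds are on this offset scale and understate changes of dim genes. Probes with a detection p-value under 0.05 on at least 3 of 9 arrays were kept (13836 of 22177), and 11228 genes were each read from their brightest probe, with 1108 having several. Symbols of 19708 probes came from the platform annotation, 2469 probes had none here, and 19688 matched RefSeq by Entrez identifier. Limma fitted treatment and cell line on all 9 arrays (4 residual degrees of freedom), with two-sided p-values adjusted by Benjamini-Hochberg over all genes. Each SE is the moderated SE of this fit, SAHA arrays included, and not the SE of the differences of the lines. The line pairs the arrays. Arrays of a line correlated at 0.942 to 0.968 and others at 0.736 to 0.890. With treatment means removed these values were 0.865 to 0.933 and −0.695 to −0.171. Removing the means itself pushes correlations between lines below 0. The labels do not say that lines were grown as separate cultures for each treatment, so p-values measure the spread between these arrays. A gene undetected on every array of a group has a bound, from the lowest detected signal of each array.

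The comparison, the 39 gene lists and the alternatives were chosen with earlier results of these data known. Named genes were the 15 largest rises and 15 largest falls past the test (lines all moving one way, higher group detected on 3 of 3 arrays), up to 6 list members each way, 24 anchors, the 6 largest differences from SAHA each way, 4 genes each way per line, and up to 8 each way that crossed detection. Members given as not passing were chosen after their values were seen. The fit was tested on simulated data. Promoters came from RefSeq (GRCh38.p14), found for 9259 genes.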

Additional observations from a re-analysis of the deposited data

Results flagged for a closer look

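BCL2, which encodes an inhibitor of apoptosis, was marked because the lines moved in opposite directions with MS-275. Its log2 change was −0.89 in NB4, −0.0906 in K562 and 0.55 in U937, and its level went from 9.58 to 8.69 in NB4, from 6.28 to 6.19 in K562 and from 7.73 to 8.28 in U937. With 1 array per line and treatment this difference between lines was not tested. Over the lines the change was −0.14 ± 0.38 (limma adjusted p = 0.827, n = 3 lines), and a dimmer probe gave −0.07.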

How the results depend on the processing

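With the cell line as the replicate block removed, 2 genes changed with MS-275 (2 up, 0 down) against 1329, and 72 differed from SAHA (14 higher, 58 lower). The counts then were 0 for ribosome biogenesis down, 1 for inflammatory genes up, 0 for cholesterol genes lower than with SAHA and 0 for haematopoietic regulators higher. Equal medians gave 2215 genes, with 1842 down, and moved the share up from 36.6% to 16.8% and the share higher than SAHA from 43.3% to 35.3%. A fit of the 6 arrays compared gave 699 (250 up, 449 down) and, against SAHA, 1742 (711 higher), with 8 ribosome biogenesis genes down. Probes detected on all 9 arrays gave 2 inflammatory genes, with IL1A, IL1B and CCL2 not tested because they do not meet that filter.

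Leaving out 1 line at a time gave 0 to 237 changed genes (0 to 133 up, 0 to 104 down) and 512 to 1731 against SAHA (202 to 756 higher, 310 to 975 lower). It gave 0 to 7 ribosome biogenesis genes down, 0 to 5 inflammatory genes up, 4 to 9 cholesterol genes and 5 to 7 haematopoietic regulators. Other counts stayed within 1.5 times. All 30 leading genes kept their sign under every alternative that tested them. They were picked for moving one way in every line. Leaving out a line, dropping the line block or fitting the 6 arrays alone therefore could not change their sign. None of the 112 named genes called against untreated or the 36 called against SAHA changed sign. Of the 112, 28 lost their call without the detection filter, 6 with a background offset of 50 and 6 without background correction. Far more lost it in other fits, 110 without the line block and 41 with the 6 arrays alone. Leaving out NB4 ended 110 calls, leaving out K562 58 and leaving out U937 112. Equal medians ended the call of TBL1X, CD68, ITGA2B, KIT, TRIB2, GADD45A, GLRX and VIM. The 28 calls lost without the detection filter included TNFAIP6, MYC, TBL1X, BRD3, CCL2, TRAF1, FCGR2A, BCL6, KIT, LYL1, FOS, DUSP4, TRIB2 and CCNE1. The rest of the 28 were MCM10, CCNA2, TNFSF10, TNFRSF10B, TNFRSF1B, GADD45A, HLA-DMA, HLA-E, HERPUD1, GLRX, CGN, VCL, IL18RAP and AIM2. The cause of lost calls was not tested, except that fits with fewer arrays have fewer degrees of freedom.

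Genes that had not passed changed sign in places. Equal medians gave −0.0146 for HDAC3, −0.0588 for HDAC8 and −0.0232 for SPI1. Against untreated, leaving out a line gave −0.0583 to 0.0526 for MAX, −0.89 to 0.12 for MXD1, −0.0539 to 0.0324 for HDAC1, −0.25 to 0.0163 for HDAC2, −0.49 to 0.23 for BCL2, −0.24 to 0.0883 for BCL2L1, −0.71 to 0.0199 for LMO2, −0.0505 to 0.52 for SPI1, −0.0593 to 0.58 for NFE2 and −0.59 to 0.36 for DACT3. Against SAHA it gave −0.16 to 0.19 for CDKN1A, −0.24 to 0.16 for KLF2, −0.0646 to 0.23 for TFAP4, −0.15 to 0.27 for FOSL1, −0.0371 to 0.30 for CDKN1B and −0.11 to 0.32 for HDAC2.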
